A study of Mus musculus with 31 samples.

Results

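Transcripts of 33 interferon response and antigen presentation genes were measured in the thalamus of 31 adult mice by RNA-seq. The genes were taken by symbol from a list that sets no threshold on measured values. They are the interferon-stimulated genes Ifit1, Ifit2, Ifit3, Ifit3b, Isg15, Irf7, Irf9, Stat2, Oasl2, Oas1a, Rsad2, Usp18, Bst2, Ifi27, Ifi35, Ifi44, Ifih1, Ddx58, Dhx58, Rtp4, Xaf1, Trim25, Parp9, Parp14, Dtx3l, Ifitm3, Lgals3bp, Gbp2 and Gbp3, and the antigen presentation genes Tap1, B2m, H2-K1 and H2-D1. All 33 were among the 25497 genes of the files, and all 33 were among the 14886 genes that passed a filter on low counts and were tested. The mice were offspring at postnatal day 90 whose mothers had undergone social isolation rearing (SIR) or had been control-housed. Polyadenylated RNA was sequenced from 7 SIR males, 8 SIR females, 8 control males and 8 control females. The labels name no strain, litter, batch or treatment of the offspring themselves, so p-values measure the spread between these libraries, and siblings would count as separate samples. Libraries are named here by group and by the number the labels give them.

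Library totals ran from 13 to 25.74 M estimated counts, with a median of 23.28 M. Library names of the SIR offspring carried numbers from 320 to 432 and those of the controls numbers from 554 to 746, so handling by number range cannot be told apart from maternal housing. The library labelled SIR female 5 went against its label: it held the Y-linked gene Ddx3y at 41.6 CPM (counts per 1000000 counts of the library), the other 15 libraries labelled female 0 to 0.0481, and the 15 labelled male 31.5 to 50.2. It was kept as labelled, so directions in females and between males and females rest in part on it. Values without it are given for the members as a set and for some genes, not for every gene named. The 8 markers of thalamic relay neurons summed to 2960 to 5780 CPM, and none was at 0 throughout. Control female 20 stood apart: its relay neuron sum (2960 CPM) was the lowest, and its 10 choroid plexus markers, each at its highest there, summed to 3110 CPM against 282 to 728 in the SIR and control male groups. SIR male 13 had a choroid plexus sum of 356 CPM, rank 15 from the highest of 31. In bulk tissue, fewer cells of a type and less RNA per cell cannot be told apart.

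Interferons are secreted proteins that warn cells of viral nucleic acid. Type I interferons bind a receptor whose kinases activate STAT2, which acts with IRF9 in a complex that binds interferon-stimulated response elements in promoters. The genes so induced include RNA sensors, enzymes that block viral replication, and parts of the machinery that shows peptides on class I molecules of the major histocompatibility complex. In the brain, microglia, endothelial cells and cells of the choroid plexus express many of these genes, and most stand at low levels in the absence of infection.

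Promoter sequences are shown for the 8 members on which the results below turn: the most strongly correlated pairs (Ifit3 with Ifit3b, and H2-K1 with H2-D1), the pair that ran against the other members (Stat2 with Ifit2), and the genes leading in the comparison of the male with the female SIR effect (Gbp3) and in control female 20 (Bst2). Each is the 250 bases before the annotated start, 5′ to 3′ on the gene's strand, from RefSeq's annotation of GRCm38.p6. Capitals mark GAAA, any 2 bases and GAAA again, or the reverse complement of this, the core of the interferon-stimulated response element. Where the table held a further start (H2-K1, Ifit2, Gbp3), the first is shown.
Ifit3 (chr19:34583279-34583528, plus strand): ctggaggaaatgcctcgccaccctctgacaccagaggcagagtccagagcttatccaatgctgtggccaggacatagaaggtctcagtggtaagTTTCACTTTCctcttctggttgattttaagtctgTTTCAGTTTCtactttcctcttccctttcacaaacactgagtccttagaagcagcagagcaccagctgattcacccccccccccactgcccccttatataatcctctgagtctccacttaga
Ifit3b (chr19:34607707-34607956, plus strand): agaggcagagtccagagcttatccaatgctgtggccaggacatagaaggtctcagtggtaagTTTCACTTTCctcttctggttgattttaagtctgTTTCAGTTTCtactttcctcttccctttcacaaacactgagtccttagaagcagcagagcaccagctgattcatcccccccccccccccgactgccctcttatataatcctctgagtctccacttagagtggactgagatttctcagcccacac
H2-K1 (chr17:34000348-34000597, minus strand): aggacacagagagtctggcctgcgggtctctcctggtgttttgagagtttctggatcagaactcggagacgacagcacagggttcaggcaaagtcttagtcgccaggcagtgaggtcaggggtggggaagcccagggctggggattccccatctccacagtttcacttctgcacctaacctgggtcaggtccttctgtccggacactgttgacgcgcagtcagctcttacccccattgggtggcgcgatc
H2-D1 (chr17:35262844-35263093, plus strand): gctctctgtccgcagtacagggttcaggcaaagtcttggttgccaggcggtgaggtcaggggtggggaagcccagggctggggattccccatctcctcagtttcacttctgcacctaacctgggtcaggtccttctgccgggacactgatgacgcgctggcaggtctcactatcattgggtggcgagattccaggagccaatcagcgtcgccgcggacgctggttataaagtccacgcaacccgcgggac
Stat2 (chr10:128270248-128270497, plus strand): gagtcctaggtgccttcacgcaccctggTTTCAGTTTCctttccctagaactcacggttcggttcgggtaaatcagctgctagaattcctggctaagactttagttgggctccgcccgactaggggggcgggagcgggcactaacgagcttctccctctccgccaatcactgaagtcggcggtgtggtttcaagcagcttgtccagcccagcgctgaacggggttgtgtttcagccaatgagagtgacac
Ifit2 (chr19:34550444-34550693, plus strand): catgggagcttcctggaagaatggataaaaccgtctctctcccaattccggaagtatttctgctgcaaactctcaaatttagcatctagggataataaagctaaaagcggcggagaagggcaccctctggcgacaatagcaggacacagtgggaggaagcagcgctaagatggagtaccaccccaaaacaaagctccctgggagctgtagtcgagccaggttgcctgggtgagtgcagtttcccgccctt
Gbp3 (chr3:142559794-142560043, plus strand): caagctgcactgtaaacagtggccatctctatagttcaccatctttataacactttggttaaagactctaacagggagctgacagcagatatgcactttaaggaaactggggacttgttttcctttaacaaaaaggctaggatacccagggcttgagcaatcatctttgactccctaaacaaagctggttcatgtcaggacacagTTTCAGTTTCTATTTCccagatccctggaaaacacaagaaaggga
Bst2 (chr8:71537473-71537722, minus strand): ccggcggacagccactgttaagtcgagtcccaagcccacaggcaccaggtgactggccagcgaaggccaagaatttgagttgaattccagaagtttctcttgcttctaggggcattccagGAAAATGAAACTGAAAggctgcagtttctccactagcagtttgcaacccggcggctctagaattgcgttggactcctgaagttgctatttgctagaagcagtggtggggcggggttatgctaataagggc

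Of the 33 members, 27 had a promoter entry. Usp18, Ifi27, Dhx58, Rtp4, Parp9 and Parp14 had none. This core (GAAA, NN, GAAA) was searched on both strands of the window from 250 bases before to 50 bases after the start, and was found in 14 of the 27 (51.9%), against 35 of 101 other interferon pathway genes (34.7%) and 1079 of 27025 genes of the table (3.99%). Ifit3 held it at -156 and -122 relative to the start and Ifit3b at -188 and -154, and 216 of the 250 upstream bases were identical in these 2 genes (86.4%). Bst2 held overlapping copies at -130 and -124, Gbp3 at -45 and -39, and Stat2 a single copy at -222. No copy was found in the windows of Ifit2, H2-K1 or H2-D1. The search allowed no mismatch, so it does not show that variants of the element are absent there. The upstream bases of H2-K1 and H2-D1 were 68.0% identical, and those of Ifit2 and Ifit3 46.4%. TTCNNNGAA, the core of the gamma-activated site, was found in 5 of the 27 members (18.5%), namely Bst2, Ifi35, Ifit2, Ifitm3 and Oas1a, in 25 of 101 other pathway genes (24.8%), and in 9.55% of all genes. It may overlap the first motif, as copies were counted for each motif separately. A match of letters is a description and does not show binding.

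Levels of the members were first compared per transcript length, as TPM (transcripts per 1000000 transcripts) averaged over the 31 libraries. B2m, the light chain of class I molecules, led with 186 ± 19.7 TPM (SD, n = 31). The class I heavy chains H2-D1 (45.7 ± 5.28 TPM) and H2-K1 (43.2 ± 6.27) followed, and their SDs overlapped. Below them were the mitochondrial membrane protein gene Ifi27 (24.1 ± 6.6 TPM), the viral entry restriction factor Ifitm3 (23.8 ± 6.08) and the secreted glycoprotein gene Lgals3bp (17 ± 4.05), whose library ranges overlapped. Another 19 members averaged between 1.95 and 13.7 TPM, from Ifit1 to Ifit3. The remaining 8 ran from Dtx3l (1.88 TPM) through Irf7, Tap1, Parp14, Rsad2, Oas1a and Usp18 down to Ifi44 (0.614 ± 0.348). Ifi44 also varied most between libraries, from 0.122 to 0.999 CPM, at a median of only 9 counts. Bst2 (SD of log2 CPM 0.46), Usp18 (0.44), Oas1a (0.44) and Irf7 (0.43) came next in spread, and Ifit2 had the least (0.13).

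**Figure D1:**
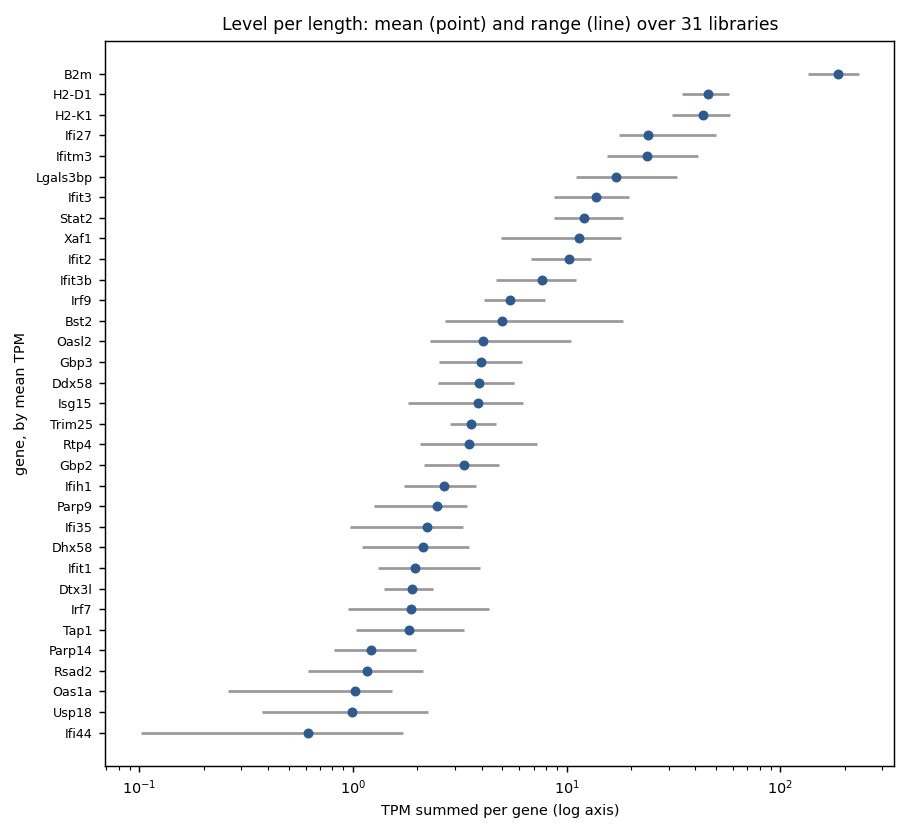
TPM of each of the 33 genes on a log axis, with the mean over 31 libraries (points) and the range from the lowest to the highest library (lines). B2m averaged 186 TPM and Ifi44 0.614, and most genes lay between 1 and 20 TPM.

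Interferon transcripts themselves were close to absent. Of 15 interferon genes measured, 11 had no count in any of the 31 libraries, which allows up to 3 counts a library, or 0.117 CPM in the deepest and 0.232 CPM in the shallowest. The other 4, Ifna16, Ifne, Ifnz and Ifng, had no more than 3 counts in any library. These limits cover counting error only.

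Several values depend on how reads of similar genes were divided. Of the 31-base words in its transcripts, Oas1a shared 68.8% with other genes, nearly all with Oas1g. Ifit3 shared 61.8% and Ifit3b 55.3%, almost entirely with each other. The share was 26.5% for H2-D1 and 22.7% for H2-K1, and about 10% for Ifit1 (10.6%), Ifitm3 (9.88%), Dtx3l (9.62%) and Parp9 (8.56%), the last pair with each other. The levels of these genes depend in part on how such reads were divided. These shares are of sequence, and the uncertainty in the levels was not measured. Bst2, Usp18, Ifi27, Ifi35, Ifit2, Rtp4, Lgals3bp and B2m shared no such word.

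Maternal SIR was compared with control housing over both sexes, within each sex, and as the gap between the effects in the 2 sexes, and males were compared with females. In edgeR's quasi-likelihood test, with Benjamini-Hochberg adjustment over 14886 genes, none of the 33 members passed an adjusted p of 0.05 in any of these 5 comparisons. Of all genes tested, 4.55% passed over both sexes, 1.33% in males, 4.62% in females, 2.83% for the difference of the effects and 10.1% between males and females. At an unadjusted p under 0.05 the members numbered 4 over both sexes, 10 in males, 5 in females, 12 for the difference and 2 between the sexes, against 22%, 17.6%, 20%, 15.3% and 26.6% of all genes. By DESeq2 the members called were Dtx3l in females (6.51% of all genes were called) and Gbp3 for the difference (3.95%), though only 13 members had an adjusted p over both sexes and 6 in males. By limma-voom they were Dhx58 over both sexes (8.34% of all genes), Trim25 in males (4.23%), Ifi35 for the difference (4.79%), and Ifit3, Stat2 and Tap1 between males and females (19.9%). The members' SEs were wide: their median SE was 0.14 in males and 0.13 in females, against 0.08 for all genes in each sex.

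In males, 30 of the 33 members had a higher estimate in SIR offspring, with a median log2 fold change of 0.23, where 49.6% of all genes did, with a median of -0.001. The 3 with a lower estimate were Ifit2, Stat2 and Ifih1. For no member were the ranges of SIR and control males separate. Of the 10 members at an unadjusted p under 0.05, 8 were higher (7.59% of all genes were) and 2 lower (10%). SIR male 13 contributed to this count: without it the median was 0.15, 29 members had a higher estimate, and 6 had an unadjusted p under 0.05. Markers of several cell types also had higher estimates in SIR males. Estimates were positive for 11 of 12 microglial markers (median log2 fold change 0.14, sums of 446 to 518 CPM against 403 to 506 in control males), 9 of 10 endothelial (0.14, 482 to 623 against 465 to 607), 9 of 10 mural and leptomeningeal (0.25, 291 to 364 against 238 to 318) and 8 of 8 oligodendrocyte markers (0.20, 8230 to 10600 against 7360 to 10300). They were positive for 5 of 5 red blood cell markers (0.34, 220 to 463 against 189 to 319). Relay neuron markers went the other way, with 3 of 8 positive (-0.19, 3340 to 5780 against 3860 to 5230, 1 called). So did choroid plexus markers, with 3 of 10 positive (-0.32, 282 to 371 against 287 to 366). Astrocyte markers were mixed, with 5 of 8 positive (0.10, 2650 to 3210 against 2500 to 2950, 1 called). Of 17 leukocyte markers only 3 passed the filter, with 2 positive (0.02). None of the markers of these lists was at 0 in all libraries, and 2 oligodendrocyte markers were called. Their part in the members' values was not tested.

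In females, 11 of 33 members had a higher estimate in SIR offspring and the median log2 fold change was -0.07, against 46.5% and -0.01 over all genes. At an unadjusted p under 0.05, 4 members were lower (10.6% of all genes were) and 1 higher (9.44%). This leaning rested on control female 20: without it 17 of 33 were higher, the median was 0.003, and 2 had an unadjusted p under 0.05. Other libraries moved these counts as well: without SIR female 3, 7 members had a higher estimate. The number at an unadjusted p under 0.05 was 3 when SIR female 7 or control female 24 was left out, and 8 when control female 30 was. Without the library labelled SIR female 5, 8 had a higher estimate and the median was -0.06. Oligodendrocyte markers had lower estimates for 8 of 8 genes in SIR females (median -0.26, 5 called), and all 10 choroid plexus markers had lower estimates (median -1.99, 3 called). The choroid plexus estimates include control female 20, at a sum of 3110 CPM, and values without it are not given. Group medians of that sum were closer, at 374 CPM in SIR females (296 to 728) and 497 in control females (408 to 3110). Estimates were positive for 6 of 12 microglial markers (median -0.002), 3 of 10 endothelial (-0.02) and 4 of 10 mural and leptomeningeal (-0.15, 1 called). They were positive for 4 of 8 relay neuron (0.067, 2 called), 5 of 8 astrocyte (0.015, 1 called) and 3 of 5 red blood cell markers (0.0). Of the 3 leukocyte markers past the filter, 0 were positive (-0.19). The part of these cells was not tested.

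**Figure D2:**
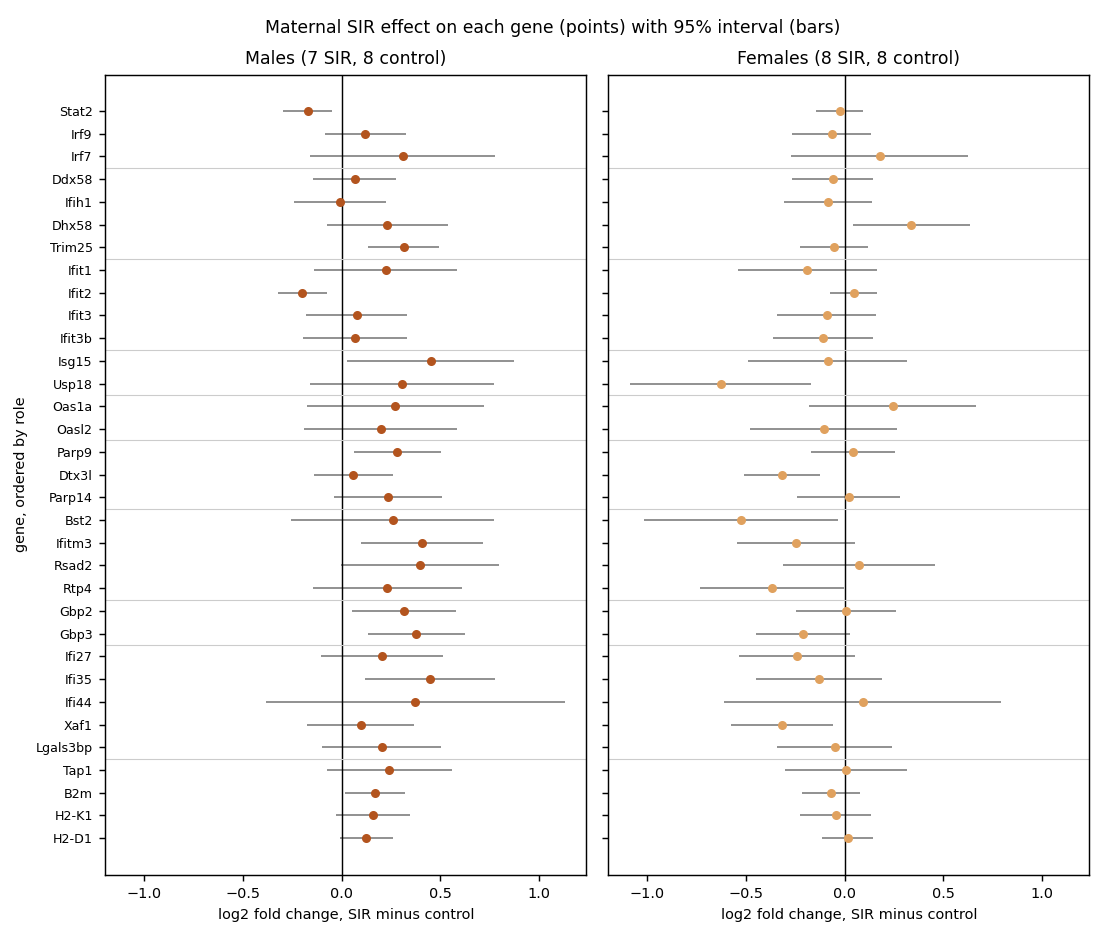
Log2 fold change of SIR over control for each gene (points) with its 95% interval (bars), in males on the left and in females on the right, genes ordered by role. In males 30 of 33 points lie above 0, in females 11 of 33, and no gene passed the adjusted threshold.

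The male estimate exceeded the female estimate for 30 of 33 members, with a median difference of 0.26 on the log2 scale, where 51.1% of all genes and a median of 0.004 were found. Of the 12 members at an unadjusted p under 0.05 for this difference, 11 were positive (7.49% of all genes were) and 1, Ifit2, was negative (7.85%). Without control female 20 the median difference was 0.21 (30 of 33), without SIR male 13 0.22 (28 of 33), and without both 0.16 (25 of 33, 7 at an unadjusted p under 0.05). That last count was also 7 without control male 25. Without SIR female 5 the median was 0.27, and 2 members, Gbp3 and Ifitm3, passed the adjusted threshold. Here and below, the share of all genes called is not given for fits that leave out 1 library.

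Receptor signalling is represented by Stat2, Irf9 and Irf7. Stat2, a subunit of the complex activated by type I interferon, ran from 17.6 to 22.5 CPM (median 19.5) in SIR males and from 20.2 to 24.7 (22.6) in control males. All 7 SIR males lay below the control median, while the ranges overlapped. SIR females (20.8 to 24.9, median 22.6) and control females (20.2 to 27.7, median 22.8) had nearly the same medians. Over both sexes the log2 fold change of Stat2 was -0.10 ± 0.04 (SE; adjusted p = 0.171 by edgeR), and between males and females -0.11 ± 0.04 (adjusted p = 0.115). Irf9, the DNA-binding partner, ran from 5.4 to 9.29 CPM over all libraries, with log2 fold changes of 0.12 ± 0.11 in males and -0.07 ± 0.10 in females. Irf7, a factor that amplifies interferon production, spread widely within groups, from 0.987 to 3.78 CPM in SIR males and from 1.23 to 3.25 in SIR females, around medians of 1.6 and 1.63. The top value was SIR male 13 in the first group (2.28 without it) and SIR female 5, which goes against its sex label, in the second (2.13 without it).

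Among the cytosolic RNA sensors and their regulators, Dhx58 and Trim25 had the lowest p-values. Dhx58 encodes LGP2, a helicase related to the other RNA sensors. It ran from 1.74 to 3.06 CPM (median 2.41) in SIR females and from 1.31 to 2.79 (1.72) in control females, and from 1.81 to 3.12 (2.72) in SIR males and from 1.73 to 2.6 (2.23) in control males. All 8 SIR females and 5 of 7 SIR males lay above the control median of their sex. Its log2 fold change over both sexes was 0.29 ± 0.11 (SE; adjusted p = 0.114 by edgeR). Control female 20 held its lowest level of all 31 libraries.

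Trim25, a ubiquitin ligase that promotes RIG-I signalling, ran from 8.51 to 12.2 CPM (median 9.75) in SIR males and from 6.28 to 9.23 (8.51) in control males. All 7 SIR males lay above the control median, the lowest by less than the rounding. The log2 fold change was 0.31 ± 0.09 (SE; adjusted p = 0.0638 by edgeR). It passed the threshold without SIR male 14 and without control female 20. In all it passed in 4 of 42 alternative settings, over which its estimates ran from 0.07 to 0.38. In females the estimate was -0.05 ± 0.09. The sensors Ddx58 (RIG-I) and Ifih1 (MDA5) differed less: their male estimates were 0.07 ± 0.11 and -0.01 ± 0.12, and their female estimates -0.06 ± 0.10 and -0.09 ± 0.11.

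The tetratricopeptide genes Ifit1, Ifit2, Ifit3 and Ifit3b encode proteins that bind viral RNA. Ifit2 ran from 11.7 to 15.9 CPM (median 13.3) in SIR males and from 13.9 to 17.5 (15) in control males. A single SIR male of the 7 lay above the control median. Its log2 fold change in males was -0.20 ± 0.06 (SE; adjusted p = 0.0953 by edgeR), opposite in sign to Ifit1 (0.22 ± 0.19), Ifit3 (0.08 ± 0.13) and Ifit3b (0.07 ± 0.13), whose intervals included 0. In SIR females Ifit2 stood at 13.6 to 16.7 CPM (median 15.2) against 13.2 to 15.4 (14.9) in control females. Between males and females Ifit3 had a log2 difference of 0.19 ± 0.09 (adjusted p = 0.186).

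Isg15, a ubiquitin-like modifier, and Usp18, the protease that removes it and restrains the interferon receptor, were both low. Isg15 stood at 1.28 ± 0.426 CPM (SD, n = 7) in SIR males and 0.935 ± 0.281 (n = 8) in control males. Usp18 ran from 0.313 to 0.962 CPM (median 0.643) in SIR females and from 0.594 to 1.72 (0.95) in control females, with 1 of 8 SIR females above the control median. Its log2 fold change in females was -0.63 ± 0.23 (SE; adjusted p = 0.118 by edgeR), at a median of 17 counts a library. In males its estimate was 0.31 ± 0.24. The oligoadenylate synthetase family gene Oas1a, whose enzyme class activates RNase L, had estimates of 0.27 ± 0.23 in males and 0.25 ± 0.22 in females. For Oasl2 they were 0.20 ± 0.20 and -0.11 ± 0.19.

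Parp9, Dtx3l and Parp14 belong to the ADP-ribosylation machinery, and PARP9 and DTX3L form a ubiquitin ligase complex. Dtx3l ran from 3.53 to 5.0 CPM (median 4.16) in SIR females and from 4.49 to 6.24 (5.39) in control females. None of the 8 SIR females reached the control median, though the ranges overlapped. The log2 fold change was -0.32 ± 0.10 (SE; adjusted p = 0.0543 by edgeR). It passed the threshold when SIR male 4, SIR female 10, SIR female 12 or control female 18, 24 or 26 was left out. With DESeq2 included, Dtx3l passed in 7 of 42 alternative settings, and its estimates over the 42 ran from -0.352 to -0.205. Parp9, which shares transcript sequence with it, had an estimate of 0.04 ± 0.11 in females and 0.28 ± 0.11 in males, where 3.31 to 3.99 CPM in SIR males compared with 2.0 to 3.99 in controls. Over both sexes its log2 fold change was 0.16 ± 0.08 (adjusted p = 0.216). For Parp14 the male estimate was 0.24 ± 0.14.

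Among genes acting at membranes, Ifitm3 ran from 6.11 to 11.6 CPM (median 8.5) in SIR males and from 4.55 to 7.9 (5.99) in control males. In females the order was the other way, with 4.49 to 9.17 (5.75) in SIR and 5.82 to 11 (6.9) in control offspring. All 7 SIR males but only 3 of 8 SIR females lay above the control median of their sex. The male effect exceeded the female effect by 0.65 ± 0.22 on the log2 scale (SE; adjusted p = 0.106 by edgeR), and 0.0454 was its adjusted p without SIR female 5. Among 42 alternative settings, the difference was called only in that 1. Bst2, which encodes tetherin and holds budding virions at the cell surface, had a difference of 0.79 ± 0.36 (adjusted p = 0.289). Its female estimate, -0.53 ± 0.25, contained 1 control library at 6.39 CPM where the other 7 ran from 1.04 to 2.03. Rtp4 had a difference of 0.60 ± 0.27 (adjusted p = 0.266), and Rsad2, which encodes viperin, one of 0.32 ± 0.28.

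The guanylate-binding proteins are GTPases that attack intracellular pathogens and respond mainly to interferon gamma. Gbp3 ran from 3.2 to 6.05 CPM (median 4.03) in SIR males and from 2.89 to 4.04 (3.33) in control males. In females it ran from 3.26 to 4.38 (3.64) in SIR offspring and from 2.69 to 5.22 (4.41) in controls. Here 6 of 7 SIR males lay above, and 8 of 8 SIR females below, the control median of their sex. The male effect was 0.38 ± 0.13 (SE; adjusted p = 0.102 by edgeR) and the difference between the effects 0.59 ± 0.17 (adjusted p = 0.0602). This difference passed the threshold when SIR female 5, SIR male 6, control male 23, control male 27 or control female 30 was left out. In all it passed in 7 of 42 alternative settings, over which it ran from 0.247 to 0.771. Gbp2 had a male estimate of 0.32 ± 0.13, with 7 of 7 SIR males above the control median, and a female estimate of 0.01 ± 0.13.

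**Figure D3:**
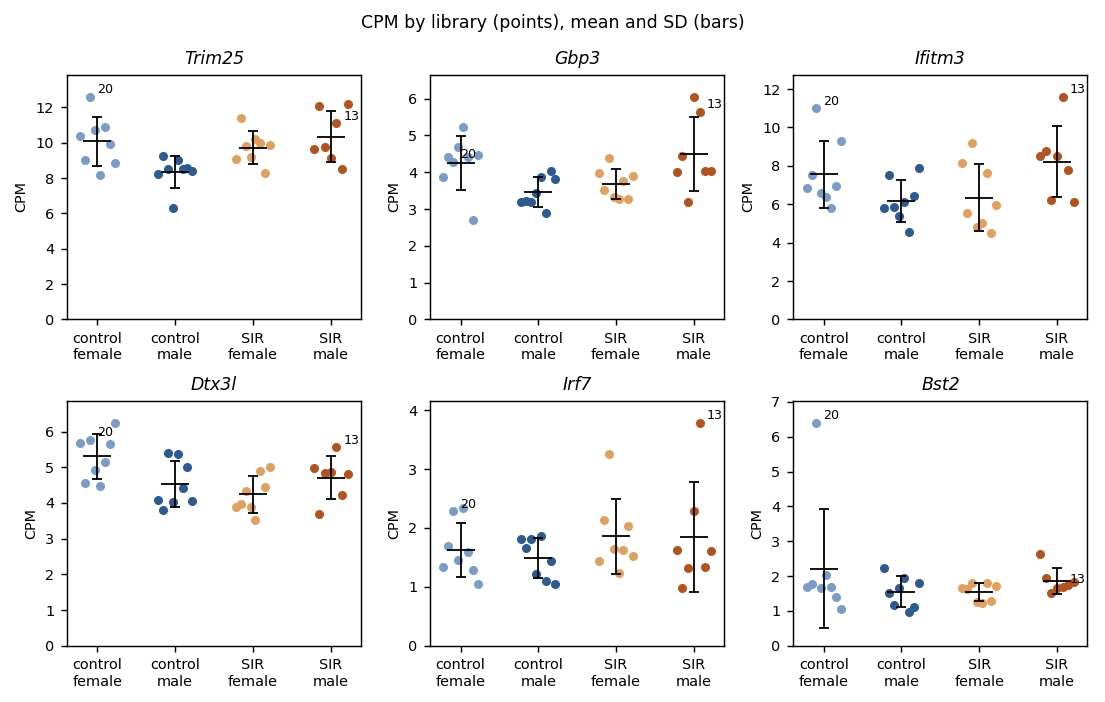
CPM of 6 genes in each library (points) by group, with the mean and SD (black bars), and control female 20 and SIR male 13 numbered. Trim25, Gbp3 and Ifitm3 were higher on average in SIR than control males, Dtx3l was lower in SIR than control females, Irf7 was highest in SIR male 13 (3.78 CPM) and Bst2 in control female 20 (6.39 CPM), and every pair of groups compared overlapped.

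Of the other induced genes, Ifi35 ran from 1.52 to 2.24 CPM in SIR males and from 1.14 to 1.77 in control males, with all 7 SIR males above the control median and an estimate of 0.45 ± 0.17. Xaf1, which promotes apoptosis, ran from 1.8 to 4.27 CPM (median 3.34) in SIR females and from 3.31 to 5.17 (4.11) in control females. A single SIR female of the 8 lay above the control median, and the log2 fold change was -0.32 ± 0.13 (SE; adjusted p = 0.166 by edgeR). Ifi27 and Lgals3bp had male estimates of 0.21 ± 0.16 and 0.20 ± 0.15. For Ifi44 the male estimate was 0.37 ± 0.39, an interval too wide to show a difference at this depth.

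B2m, H2-D1 and H2-K1 were the most abundant members. B2m stood at 53.3 ± 2.42 CPM in the 7 SIR males and 47.4 ± 6.44 in the 8 control males (SD). The 8 SIR females averaged 51.1 ± 5.06 CPM and the 8 control females 53.6 ± 6.84. The male log2 fold change was 0.17 ± 0.08. H2-K1 stood at 27.1 ± 2.47, 24.4 ± 3.75, 25.6 ± 3.79 and 26.4 ± 3.12 CPM in the same 4 groups, and H2-D1 at 49.8 ± 3.88, 45.6 ± 3.18, 46.2 ± 4.78 and 45.7 ± 5.33. Their male estimates were 0.16 ± 0.10 and 0.13 ± 0.07, and their female estimates -0.05 ± 0.09 and 0.02 ± 0.07. Tap1, a subunit of the transporter that carries peptides to class I molecules, had a log2 difference of 0.21 ± 0.11 between males and females (adjusted p = 0.248 by edgeR).

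Of the other genes of the pathway, 98 of 128 listed passed the filter. Over both sexes 2 of the 98 were called, where 4.55% of all genes were, both lower in SIR offspring: the receptor kinase Jak2, at -0.13 ± 0.03 on the log2 scale (SE; adjusted p = 0.0334 by edgeR), and the sensor-pathway kinase Tbk1, at -0.18 ± 0.05 (adjusted p = 0.0319). Tbk1 kept its call in 32 of 42 alternative settings and lost it when SIR male 1 or 6, SIR female 3 or 12, control male 22 or 25 or control female 30 was left out. Jak2 kept its call in 26 of 42 and lost it without SIR male 1 or 15, SIR female 3, 5 or 12, control male 19, 21 or 25, or control female 29 or 30. Both lost it with the length trend removed, without the 2 shallowest libraries and without the 8 libraries set apart by number, and Jak2 also with upper-quartile scaling, without a filter and on log2(TPM + 1). Without the 8 libraries, 0 of all 14918 genes tested were called over both sexes. In males 0 of 98 were called by edgeR, 17 with an unadjusted p under 0.05 (17.6% of all genes). In females 2 were called (4.62% of all genes). Slfn8, of the Schlafen family, fell from 1.47 ± 0.443 CPM (SD, n = 8) in controls to 0.71 ± 0.192 (n = 8), or -1.03 ± 0.22 on the log2 scale (adjusted p = 0.00651 by edgeR), and was called in all 41 alternative settings that tested it. Irf5, a factor of inflammatory signalling in myeloid cells, rose by 0.45 ± 0.13 (adjusted p = 0.0416) and was called in 24 of 42. It lost the call without SIR female 3, 5, 7, 9, 11 or 12 or control female 18, 20, 26, 29, 30 or 31, and also by limma-voom, without a filter, on log2(TPM + 1), and without the 2 shallowest or the 8 libraries. Slfn8 was also the 1 gene of the 98 called for the difference between the effects, where 2.83% of all genes were (1.12 ± 0.32, adjusted p = 0.047 by edgeR), in 12 of 41 settings. Among single libraries, that call held only when SIR female 2, 12, SIR male 6, 14, control male 23, 27 or control female 30 was left out. Between males and females 5 were called, with Psmb10 and Trex1 higher and Calr, Pdia3 and Cgas lower in males (10.1% of all genes were called). Each of the 5 lost its call without 8 libraries whose name numbers stood apart, Psmb10 and Trex1 also on log2(TPM + 1) and with the length trend removed. All 5 kept it without SIR female 5. Cgas kept its call in 24 of 41 settings and lost it without SIR male 6, 8 or 15, SIR female 7, 9 or 10, control male 21, 22, 23 or 27, or control female 29 or 30, among others.

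These calls came from different comparisons, in which 2.83% to 10.1% of all genes were called. By role, Jak2 was 1 of 9 receptors and kinases, Tbk1 and Cgas 2 of 12 sensors and adaptors, Irf5 1 of 9 transcription factors and Slfn8 1 of 34 other effectors. Of 27 further antigen presentation genes, Psmb10, Calr and Pdia3 were the ones called, and of 7 negative regulators Trex1. Each of these was called between males and females, where 10.1% of all genes were. In males 73 of the 98 genes had a higher estimate in SIR offspring, with a median of 0.09, where 49.6% of all genes did. In females 31 of 98 did, with a median of -0.06, against 46.5% of all genes.

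Among single libraries, 2 stood out in these genes. Control female 20 exceeded all 29 libraries other than SIR male 13 for 15 of the 33 members, and SIR male 13 exceeded all 29 libraries other than control female 20 for 8. Ifitm3, Irf9, Lgals3bp, Oasl2 and Usp18 were in both sets. Bst2, Gbp2, H2-D1, H2-K1, Ifi27, Ifit1, Ifit3, Ifit3b, Rtp4 and Trim25 exceeded all 29 in control female 20 alone, and Ifi44, Irf7 and Parp14 in SIR male 13 alone. Several also ranked high in the other library. Ranks from the highest ran from 2 (Ifit3) to 15 (H2-K1) in SIR male 13 and from 4 (Irf7) to 15 (Parp14) in control female 20. In control female 20 Bst2 stood at 6.39 CPM, 3.82 times the median of the 29 others. Ifi27 stood at 20 CPM (2.14 times), Lgals3bp at 39.1 (2.07 times), Usp18 at 1.72 (2.21 times) and Rtp4 at 3.4 (2.06 times). In SIR male 13 Irf7 stood at 3.78 CPM (2.38 times that median), Oasl2 at 7.51 (2.0 times) and Usp18 at 1.65 (2.11 times), while Bst2 was at 1.69 (1.01 times). Among the members, 31 lay above their median over all libraries in SIR male 13 and 29 in control female 20.

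Cell type markers were alike in these 2 libraries for some types and differed for others. Microglial markers summed to 501 CPM in control female 20 and 500 in SIR male 13, ranks 3 and 4 from the highest of 31. Leukocyte markers summed to 9.74 and 7.95 CPM, ranks 1 and 3 of a range that began at 3.68. Only 3 of these 17 markers passed the filter on low counts, so their ranks rest on low counts. Relay neuron sums were low in both, at 2960 and 3630 CPM (ranks 31 and 28). Endothelial sums were 497 and 577 CPM (ranks 27 and 6), and the choroid plexus sums were far apart at 3110 and 356 CPM. Their part in the members' levels was not tested. At the other end, control male 25 had the lowest median over the members, -0.27 on the log2 scale from the median library, with 25 of 33 below.

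**Figure D4:**
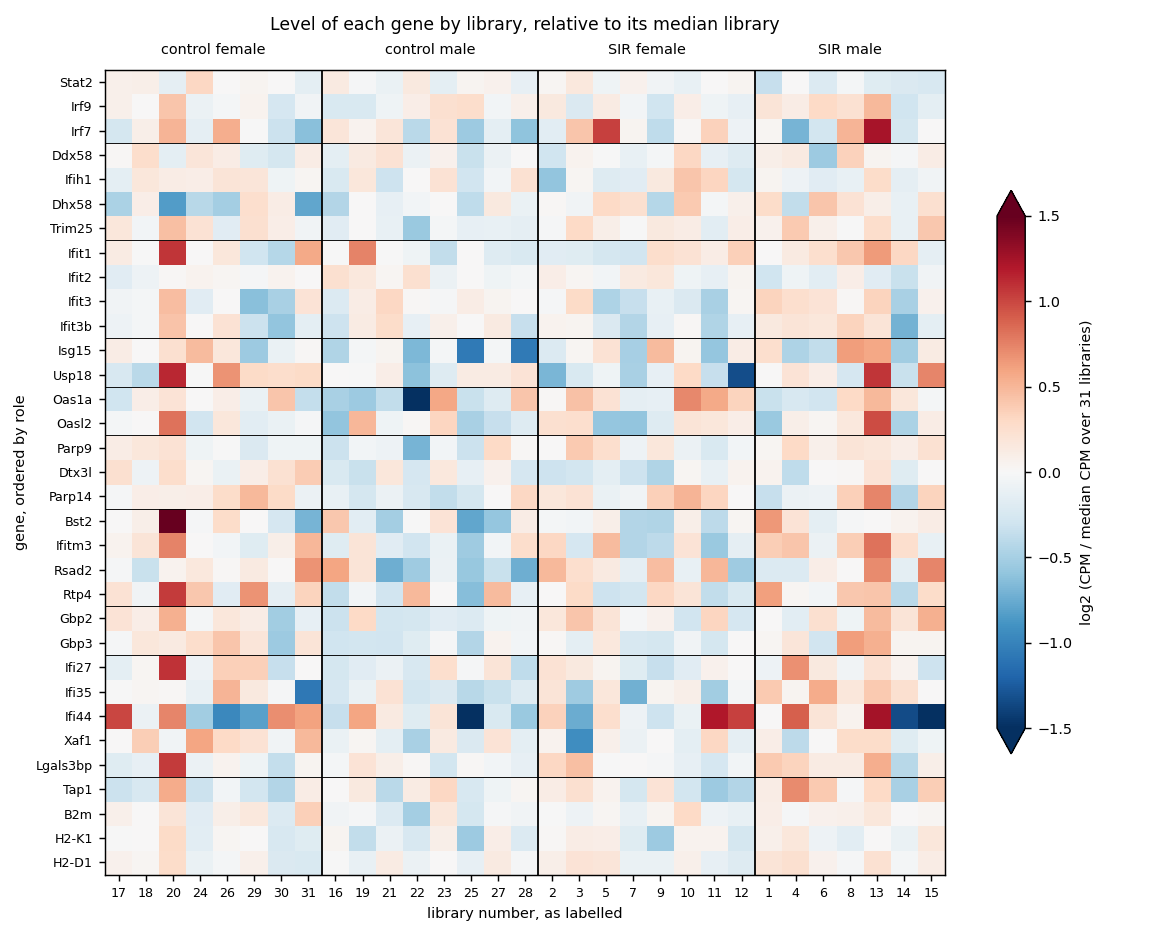
Log2 ratio of each gene's CPM to its median over the 31 libraries (color; red higher, blue lower), with genes in rows by role and libraries in columns by group. Control female 20 and SIR male 13 stand out as red columns, with 29 and 31 of the 33 genes above their median, while Ifi44 varies in both directions in every group.

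Levels of the members co-varied weakly across libraries. Over the 528 pairs of members, the median Pearson correlation of log2 CPM across 31 libraries was 0.22 and 416 pairs (78.8%) were positive, where all pairs of tested genes had a median of -0.001 and 49.9% positive. Without control female 20 the median was 0.18 with 419 positive pairs. Without SIR male 13 as well it was 0.13, with 382 positive. After subtracting group means it was 0.18. Within groups the median was 0.19 in control females, 0.16 in control males, 0.09 in SIR females and 0.29 in SIR males. Leaving out control female 20 or SIR male 13 from its own group gave 0.08 and 0.13. Pairs share library depth and scaling, and 0.22 rests in part on these 2 libraries.

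Of the 528 pairs, 23 had an adjusted p under 0.05 in a permutation test (two-sided, 100000 permutations, adjusted over all pairs), all of them positive. Without control female 20 the number was 9, each among the 23. The share of all gene pairs that would pass was not computed, so these counts are a description. The closest pair by r was Ifit3 and Ifit3b, with r = 0.79 and rho = 0.72 (permutation p = 1e-05, the smallest these permutations can give, adjusted p = 0.0018; for rho adjusted p = 0.0053). It was 0.77 without control female 20, 0.77 without the 2 libraries farthest from the median of Ifit3, and 0.76 to 0.84 within the 4 groups. These 2 genes share transcript sequence, so reads could have been divided between them. H2-K1 and H2-D1 followed with r = 0.74 and rho = 0.77 (adjusted permutation p = 0.0018 and 0.0026), 0.70 without control female 20 and 0.68 to 0.95 within groups. They share 358 of the 31-base words with each other, so reads could have been divided between them as well. The neighbours Ifit3 and Lgals3bp in this order had r = 0.73 and rho = 0.79 (adjusted permutation p = 0.0018 and 0.0026) and share no such sequence. Lgals3bp and Tap1 had r = 0.67 (adjusted permutation p = 0.0053), which was -0.43 within control males and 0.69 to 0.94 within the other groups.

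Some pairs rested on 1 library. Bst2 and Lgals3bp had r = 0.57 over 31 libraries (adjusted permutation p = 0.074) and 0.16 without control female 20, and rho was 0.07. Bst2 and Ifi27 went from 0.54 to 0.12, and Ifi27 and Lgals3bp from 0.59 to 0.32. By contrast, Ifitm3 and Gbp3 had r = 0.62 with it and 0.63 without it (adjusted permutation p = 0.014 and 0.023), although r was near 0 within control females. Trim25 and Parp9 had r = 0.66 and 0.66 (adjusted permutation p = 0.0079 and 0.015), with rho = 0.49 (adjusted permutation p = 0.12), and r was 0.48 without the 2 libraries farthest from the median of Trim25.

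Stat2 and Ifit2 ran against the other members. Stat2 correlated positively with 2 of the 32 others and Ifit2 with 7, with mean r of -0.17 and -0.14, whereas they correlated with each other at r = 0.59 and rho = 0.48 (adjusted permutation p = 0.022 and 0.12; r = 0.60 without control female 20). That r was -0.04 within control females and 0.27 to 0.72 within the other groups. The most negative pair of all was Stat2 with B2m (r = -0.52). Dhx58 also leaned negative over 31 libraries, with 8 of 32 positive, but had 21 of 32 positive without control female 20. Without Stat2 and Ifit2, a choice made after seeing these values, the median over the remaining 465 pairs was 0.26. Their upstream sequences printed above share no feature that was searched for, since the response element core was found in Stat2 and not in Ifit2.

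**Figure D5:**
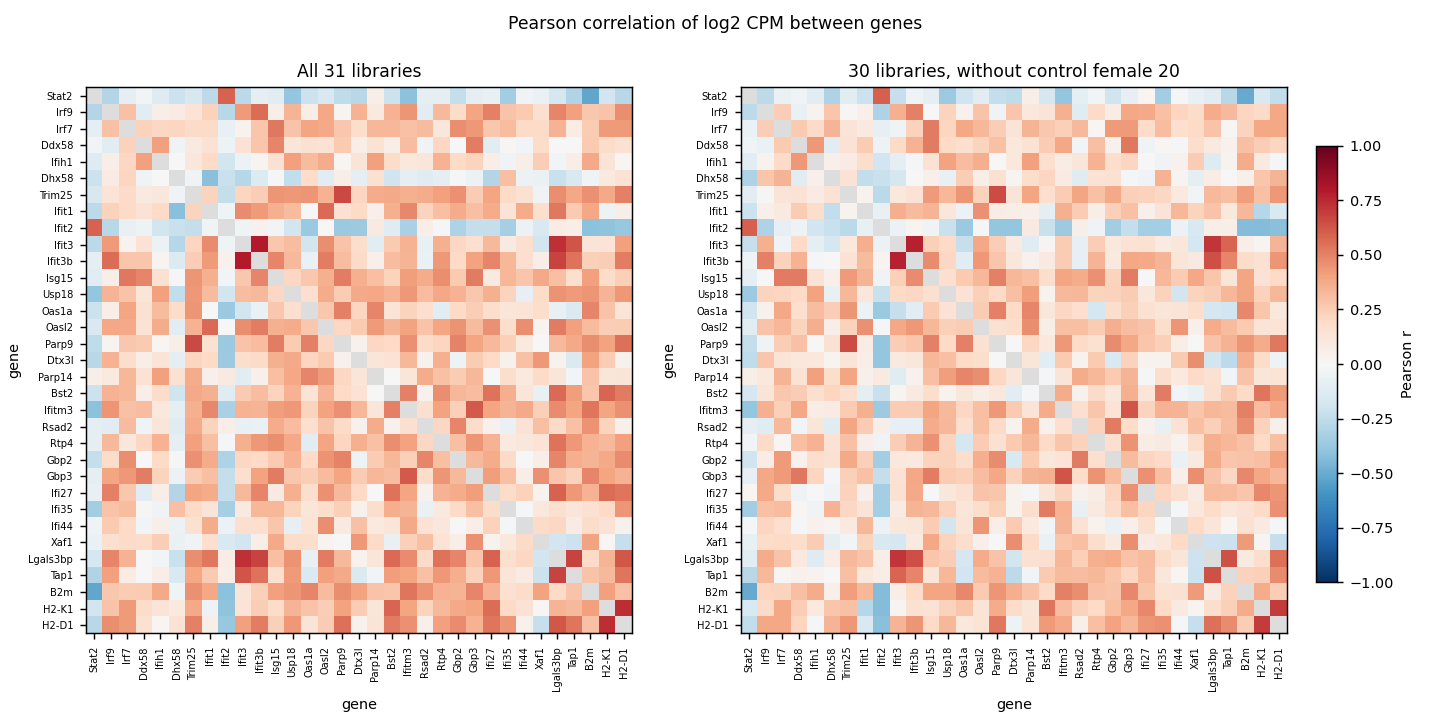
Pearson correlation between every pair of the 33 genes (color; red positive, blue negative, diagonal grey) over all 31 libraries on the left and over 30 without control female 20 on the right. Most pairs are weakly positive in both panels (416 and 419 of 528), Stat2 and Ifit2 form blue rows and columns, and Ifit3 with Ifit3b and H2-K1 with H2-D1 are dark red in both.

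Genes outside the list were ranked by their correlation with the mean of the standardised members, after subtracting group means, over the 30 libraries without control female 20. The highest was Tapbp (r = 0.75, and 0.75 without SIR male 13), which encodes tapasin, the chaperone that links class I molecules to the peptide transporter. Irf1, a transcription factor induced by interferon gamma, had r = 0.68, and Parp12 0.63. The others of the 10 highest were Wfdc18, Rnf114, Slc2a10, Galk1, BC028528, Tspo and C1ra, with r between 0.63 and 0.68. They were picked as the highest of all genes tested, so these values are a description.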

How the data were processed

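For each of 31 libraries the authors deposited a table of 105878 transcripts, with columns for estimated counts, TPM and effective length, per the file headers. Per the labels' protocols, libraries were made from polyadenylated RNA with Illumina's stranded ligation kit. Per the submitters' processing notes, FastQC and kallisto were used with the build GRCm39; for versions and strand setting, nothing is given in the sources used here. Expected (estimated) counts deposited by the authors are not normalized, per the file headers and values. TPM as deposited by the authors is scaled by effective length, which is another deposited value, per the file headers.

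Transcripts were matched by identifier to GENCODE M21 (104949, 99.12%), giving 25497 genes. The 929 others held 0.69 to 0.76% of counts. Counts were summed per gene, rounded, filtered by filterByExpr, scaled by TMM and tested with edgeR 4.0.16 (robust quasi-likelihood, a mean for each of the 4 groups) in R 4.3.3, tested on simulated data first. CPM use TMM-scaled totals; groups are described by mean ± SD or range, and fold changes by ± SE. Correlations used log2 CPM with a prior count of 2. Alternatives were DESeq2 1.42.0, limma-voom (limma 3.58.1), other scalings and filters, log2(TPM + 1), removal of a transcript length trend, and leaving out libraries. No libraries of a group agreed within sampling noise, so none was treated as deposited more than once. Proteins were not compared here.

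The members, gene lists and tests were chosen with earlier results of these data known. Members given in full are those called in any comparison, else the 3 with the smallest p in each, plus those with the highest level and the widest spread. The other members are described by role, with values printed beyond this rule for Parp9, Ifi35, Isg15, Irf9 and Irf7, chosen after their values were seen. Other genes are those of the pathway list that were called, and the 10 most like the members' mean.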

Additional observations from a re-analysis of the deposited data

Results flagged for a closer look

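In 13 of the 132 combinations of gene and group, 1 library lay farther from its own group than Dixon's limit allows. That limit is set for about 1 in 20 among independent, normally distributed values. The members co-varied, and the share of all genes beyond the limit was not computed, so the count is a description. Control female 20 was high for Bst2 (6.39 CPM against 1.04 to 2.03 in the other 7), Lgals3bp (39.1 against 14.8 to 19.6) and Oasl2 (6.67 against 3.12 to 4.27). The median over the members, as the log2 deviation from each gene's mean, was 0.353 in this library and -0.082 to 0.089 in the other control females. Control male 19 was high for Ifit1 (3.27 CPM against 1.51 to 1.95) and Gbp2 (4.39 against 2.85 to 3.43). Control male 22 was low for Oas1a (0.232 CPM against 0.635 to 1.38) and Trim25 (6.28 against 8.22 to 9.23). SIR female 10 was high for B2m (62.6 CPM against 47.3 to 52.4). The remaining 5 were low values: Ifit3 in SIR male 14 (7.27 CPM against 10.3 to 12.9), Ddx58 in SIR male 6 (3.76 against 5.4 to 6.97), Xaf1 in SIR female 3 (1.8 against 3.1 to 4.27), Ifi35 in control female 31 (0.72 against 1.41 to 2.16) and Gbp3 in control female 30 (2.69 against 3.86 to 5.22).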

How the results depend on the processing

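The number of members called was 0 in each of the 5 comparisons, and moved in these settings. With limma-voom it was 1 over both sexes, 1 in males, 1 for the difference of the effects and 3 between males and females. With DESeq2 it was 1 in females and 1 for the difference. At a threshold of 0.1 it was 2 in males, 1 in females and 1 for the difference. Of all 14886 genes, 212 were higher and 470 lower in males at that threshold. In females 626 were higher and 630 lower, and for the difference 318 and 402. Without the 2 shallowest libraries 1 member was called in males, where 2.55% of all genes were. Leaving out 8 libraries with name numbers set apart from the others, an alternative chosen after seeing the data, gave 2 members in males (Gbp3 and Parp9) and 1 for the difference (Gbp3). Of all 14918 genes then tested, 3.63% were called in males and 2.58% for the difference. Over both sexes 0 of all genes were then called, against 677 with all libraries, and in females 45, against 688. Leaving out each library in turn gave 0 to 1 members called in males, 0 to 1 in females, 0 to 2 for the difference, and 0 over both sexes and between males and females. Shares of all genes called are not given for these fits. The median log2 fold change of the members then ran from 0.146 to 0.28 in males, -0.103 to 0.003 in females, 0.042 to 0.098 over both sexes, 0.214 to 0.335 for the difference and -0.061 to 0.008 between males and females. Over both sexes the number of members at an unadjusted p under 0.05 ran from 1 (without control male 22 or SIR male 15) to 7 (without control female 20). Between males and females it ran from 0 (without SIR male 1) to 3 (without control female 20 or SIR male 14), and 20 of 31 libraries moved this count of 2 by more than 1.5 times. Without SIR female 5 the count was 1, and the members' median log2 fold change between males and females was -0.037. The median correlation of members was 0.155 within control males, 0.094 within SIR females, 0.286 within SIR males, 0.281 without the 8 libraries and 0.129 without control female 20 and SIR male 13, the last added after seeing the data. Leaving out 1 library gave 0.169 to 0.241. Among all genes, calls over both sexes were 677 (261 higher, 416 lower) and 752 with upper-quartile scaling (446 higher, 306 lower). In males they were 198 (42 higher, 156 lower) and 204 (110 higher, 94 lower), and for the difference 422 (161 higher, 261 lower) and 444 (219 higher, 225 lower). With that scaling 31 of 33 members were higher in SIR males. Removing the length trend left 79 genes called over both sexes and 36 in males. DESeq2 called 1162 and 625 and limma-voom 1241 and 629. The cause of these changes was not tested. No paired analysis was possible because the labels number the libraries once through all 4 groups, so no number is shared. Ifi44, with a median of 9 counts, had the widest intervals.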

Other observations

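The transcripts behind each member's counts differed. Oasl2 was led by a transcript annotated for nonsense-mediated decay, which took 54.1% of its counts on average (0 to 79.6% by library), while protein-coding transcripts took 43.1%. Protein-coding transcripts took 73.7% for Ddx58, 81.9% for Xaf1 and 84.0% for Irf7. For H2-K1, transcripts with a retained intron took 8.13% (1.13 to 25.2%), and for Ifi27 9.41% (0.612 to 27.1%). Such shares are kallisto's division of reads between overlapping transcripts, and are less certain than the sums per gene, most of all at low counts.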
